A study of Mus musculus with 9 samples.

Results

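Mouse bone marrow-derived dendritic cells (BMDC) exposed to lysophosphatidic acid (LPA) for 6 h were compared with untreated BMDC by RNA-seq, over all genes. The comparison used 6 of the 9 libraries of the study, the 3 labelled 6 h and the 3 labelled untreated, each assigned by its own label. The remaining 3 libraries, after 2 h of LPA, entered the estimate of the spread and are used where the level at 6 h is set beside that at 2 h. BMDC are made by culturing bone marrow until it yields cells that take up and present antigen, so every group shares that culture, and the series title places the work in the context of tumor-derived LPA and type I interferon responses. The labels used here give no mouse strain, age, LPA dose or vehicle, and no time in culture for the untreated cells. They do not say whether the replicates are different animals or different cultures. The p-values therefore reflect only how far these samples vary, and that variation may be technical.

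LPA is a signalling phospholipid that acts on G protein-coupled receptors, and it raises or lowers cAMP depending on the receptor and the G protein. Type I interferon acts through the receptor chains Ifnar1 and Ifnar2, the kinases Jak1 and Tyk2, and the ISGF3 complex, which holds Stat2 and Irf9. ISGF3 binds the interferon-stimulated response element (ISRE) of genes whose products degrade viral RNA, block viral entry or budding, or sense nucleic acids. Dendritic cells keep a low resting output of these genes in culture and raise it on sensing microbes.

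The promoters of 3 of the genes that fell most and 3 of the genes that rose most are printed because they hold letters searched for as response elements. Each runs from 250 bases before to 20 bases after a gene start, 5′ to 3′ on the gene's strand, from RefSeq on GRCm38.p6. Capitals mark the matches, which are GAAA, any 2 bases and GAAA, on either strand (ISRE) in the Ifit promoters and TGANTCA (AP-1) in the others. N is any base, a loose pattern, and the Hilpda match reads TGAATCA. The first group belongs to Ifit3b (chr19:34607707-34607976, plus strand), Ifit3 (chr19:34583279-34583548, plus strand) and Ifit1 (chr19:34640639-34640908, plus strand).
Ifit3b: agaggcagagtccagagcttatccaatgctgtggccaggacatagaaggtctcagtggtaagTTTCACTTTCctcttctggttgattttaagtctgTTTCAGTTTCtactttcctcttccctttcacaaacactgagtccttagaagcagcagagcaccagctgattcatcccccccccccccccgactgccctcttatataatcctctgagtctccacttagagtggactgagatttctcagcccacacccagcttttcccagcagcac
Ifit3: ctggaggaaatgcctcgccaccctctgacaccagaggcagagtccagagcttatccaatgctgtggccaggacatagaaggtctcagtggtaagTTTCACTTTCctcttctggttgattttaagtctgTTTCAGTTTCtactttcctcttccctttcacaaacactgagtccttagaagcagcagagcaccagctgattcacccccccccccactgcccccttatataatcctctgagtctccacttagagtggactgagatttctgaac
Ifit1: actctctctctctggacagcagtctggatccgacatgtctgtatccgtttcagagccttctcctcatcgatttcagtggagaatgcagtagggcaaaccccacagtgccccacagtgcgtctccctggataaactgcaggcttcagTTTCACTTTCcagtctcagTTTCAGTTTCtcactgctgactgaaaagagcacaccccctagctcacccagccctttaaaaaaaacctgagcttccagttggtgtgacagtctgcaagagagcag
The second group belongs to Hilpda (chr6:29272238-29272507, plus strand), Rab15 (chr12:76818355-76818624, minus strand, one of 4 RefSeq starts of this gene) and Sdcbp2 (chr2:151572373-151572642, plus strand).
Hilpda: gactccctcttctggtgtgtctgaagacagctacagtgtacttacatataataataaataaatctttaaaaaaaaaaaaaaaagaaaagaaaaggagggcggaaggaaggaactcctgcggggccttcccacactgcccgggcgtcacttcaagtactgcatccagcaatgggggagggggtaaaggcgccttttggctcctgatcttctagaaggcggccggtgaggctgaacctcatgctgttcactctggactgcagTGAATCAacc
Rab15: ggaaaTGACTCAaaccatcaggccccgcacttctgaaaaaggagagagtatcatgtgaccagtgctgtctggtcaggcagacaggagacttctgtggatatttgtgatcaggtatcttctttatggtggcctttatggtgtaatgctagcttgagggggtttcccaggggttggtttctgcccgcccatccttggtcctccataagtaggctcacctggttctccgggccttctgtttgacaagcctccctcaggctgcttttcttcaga
Sdcbp2: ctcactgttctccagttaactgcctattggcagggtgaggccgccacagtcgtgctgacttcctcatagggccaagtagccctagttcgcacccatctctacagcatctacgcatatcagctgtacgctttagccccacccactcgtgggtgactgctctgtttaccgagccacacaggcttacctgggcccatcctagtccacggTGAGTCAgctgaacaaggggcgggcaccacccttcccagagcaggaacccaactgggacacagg

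The copies TTTCACTTTC and TTTCAGTTTC stood in each of the 3 Ifit promoters in that order. They began at -188 and -154 in Ifit3b, -156 and -122 in Ifit3, and -104 and -85 in Ifit1, where -1 is the base before the start. Over the 32851 RefSeq promoter windows of 300 bases in the mouse, 3.44% held the ISRE letters. The AP-1 matches began at 11 in Hilpda (inside the transcript), -245 in Rab15 and -44 in Sdcbp2, and 7.81% of all windows held these letters. Among list members with a window, the ISRE letters were in 5 of 6 Ifit genes, 8 of 9 genes of the PYHIN family, 3 of 7 Schlafen genes and 7 of 12 antiviral restriction factor genes. They were in 2 of 8 genes of the receptor and ISGF3 list, 1 of 5 of ISG15 conjugation and 1 of 5 other interferon regulatory factor genes, the remaining interferon lists in which at least 80% of tested members had a window. Ifit2, with a log2 fold change of -3.91 beside -3.88 for Ifit1, held 0 ISRE matches in its windows. Of the 12 largest falls listed below, Ifi44, Gpr84 and Tnfsf15 also held 0, and Ifi213, Ifit1bl1 and Tgtp2 held 1 each. Of the 12 largest rises, Lepr, F5, Nt5e, Snph, Rims3 and Flvcr2 held 0 AP-1 matches. Rtp4, Mx2, Angptl4, Cd14 and Tgm2 had no window. Ifit3 and Ifit3b also held 1 AP-1 match each, left in lower case above. The other motifs searched, on both strands, were GAS (TTCNNNGAA, in 8.3% of all windows), CRE (TGACGTCA, 1.79%), SRE (TCACNCCAC, 1.24%), CARE (TGATGCAA, 0.895%), ARE (TGACNNNGC, 12.4%) and the E-box (CACGTG, 7.15%). For all genes at least 2-fold lower the check of these shares was void, since only 419 of 644 (65.1%) had a window and 80% were needed. A match is a description of letters, not a binding site.

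Untreated libraries held 47425282, 66798287 and 47724259 counts and 6 h libraries 29628817, 54067138 and 63050458. After a filter on low counts 14363 genes were tested. On the first principal component of log2 CPM (counts scaled to a common library size) the untreated libraries lay between -36.9 and -34.5 and the 6 h libraries between 35.7 and 40.6. Replicate 2 at 2 h lay at 9.74 and the other 2 h libraries at -4.67 and -12.4. Untreated replicate 2 stood apart in a few low genes, with 207 counts of Slco2a1 and 106 of Hpgd where the other untreated libraries held 1 to 11, and with the highest stromal marker sum (14.3 CPM against 3.94 to 5.91 in the other 5 libraries compared). Counts of calls without each library are given with the limits.

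Interferon-stimulated genes made up most of the largest falls after 6 h in genes that reached 5 CPM. The largest rises in such genes included the lipid droplet gene Hilpda, the ecto-nucleotidase gene Nt5e, the coagulation factor gene F5 and the lipopolysaccharide co-receptor gene Cd14. Of 14363 genes, 3786 (26.4%) were higher and 3686 (25.7%) lower at 6 h (edgeR, quasi-likelihood F, Benjamini-Hochberg adjusted p under 0.05), in all 52.0% of genes tested. Most of these differences were small, since the median log2 fold change was 0.40 among genes called higher and -0.43 among genes called lower. At least 2-fold higher were 496 genes (3.45%) and at least 2-fold lower were 644 (4.48%). At least 4-fold higher were 114 (0.794%) and at least 4-fold lower 133 (0.926%). The groups did not overlap in 63.0% of genes, 32.0% with 6 h higher and 31.0% with 6 h lower. Changes are given below as log2 fold changes at 6 h over untreated, with ± for the standard error (SE), and as rises or falls only where the adjusted p passed. The genes at least 2-fold lower held 3.08 ± 0.0194% of all counts in untreated cells and 1.15 ± 0.021% at 6 h (SD, n = 3 each). The genes at least 2-fold higher went from 0.733 ± 0.0204% to 2.52 ± 0.045%. Both classes were chosen by their change in these same libraries, so the direction of these shifts follows from the choice. The shares describe only how much of the counts the classes held. In bulk RNA, fewer cells of a type and less RNA per cell cannot be told apart.

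**Figure D1:**
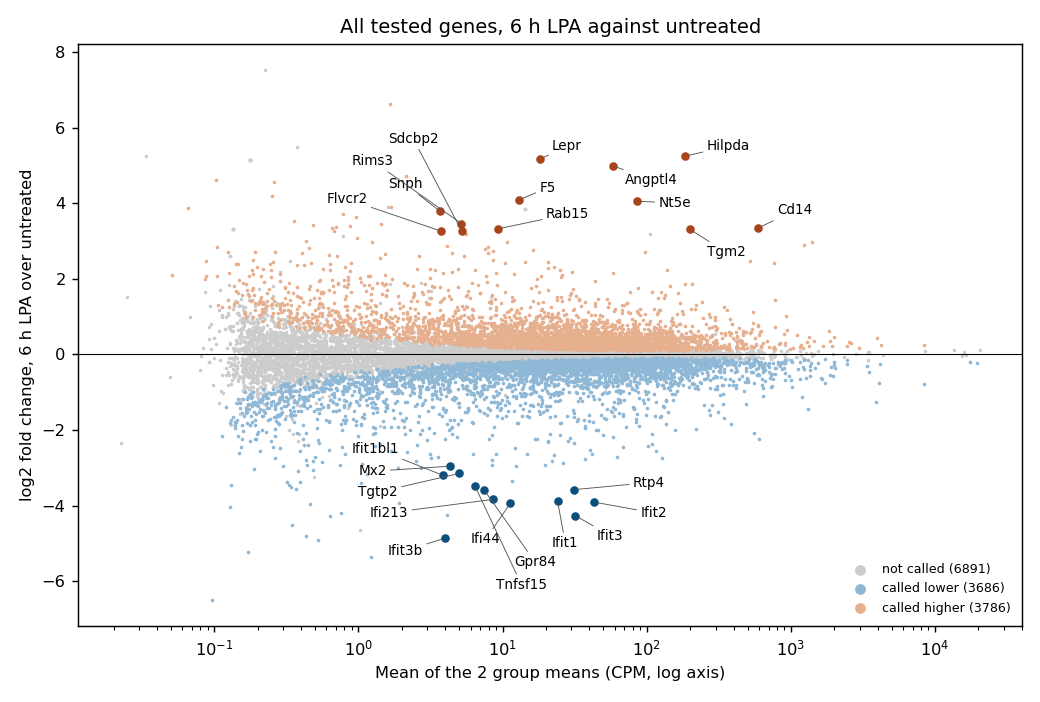
Each point is 1 of the 14363 tested genes, with the mean of both group means on the horizontal log axis (CPM) and the log2 fold change at 6 h over untreated on the vertical axis. Colour gives the call by edgeR (3786 higher, 3686 lower), and the 12 largest rises and 12 largest falls by the naming rule are labelled, from 5.24 for Hilpda to -4.86 for Ifit3b.

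Among genes that reached 5 CPM in the higher group, the 12 largest falls were Ifit3b, Ifit3, Ifi44, Ifit2, Ifit1, Ifi213, Gpr84, Rtp4, Tnfsf15, Ifit1bl1, Tgtp2 and Mx2, with log2 fold changes from -4.86 to -2.96 and edgeR adjusted p from 1.42e-08 to 3.66e-05. Ifit3 (GRCm38 chromosome 19, 34583531 to 34588731, plus strand), whose product binds other IFIT proteins, measured 61.5, 61.6 and 59.5 CPM in the untreated libraries and 3.19, 2.89 and 3.39 CPM at 6 h (log2 fold change -4.27 ± 0.22, SE). Ifit2 (chromosome 19, 34550694 to 34576419), which encodes an RNA-binding antiviral protein, measured 82, 78.6 and 82 CPM untreated and 5.68, 4.41 and 6.07 CPM at 6 h. For both genes every 6 h library lay far below the lowest untreated library. Rtp4 (chromosome 16, 23520291 to 23614222), an interferon-induced chaperone of membrane receptors, went from 58.7, 57.3 and 57.1 to 4.21, 4.19 and 5.86 CPM. Ifi44 (chromosome 3, 151730922 to 151749960), another interferon-induced gene, went from 24.6, 19.5 and 19.4 to 1.87, 1.14 and 1.29 CPM. Outside the interferon families stood Gpr84 (chromosome 15, 103308235 to 103310612), a receptor for medium-chain fatty acids, with 12.2, 15.9 and 13.1 CPM untreated and 0.953, 1.49 and 0.965 CPM at 6 h, and Tnfsf15 (chromosome 4, 63727084 to 63745113), a TNF-family cytokine, with 10.7, 14.1 and 10.7 and 0.854, 1.27 and 0.997 CPM. Ifit3 and Ifit3b are close copies, as their promoters show, and the split of reads between them by the counting method is uncertain. The same holds for Tgtp1 and Tgtp2.

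Among genes that reached 5 CPM in the higher group, the 12 largest rises were Hilpda, Lepr, Angptl4, F5, Nt5e, Snph, Rims3, Cd14, Rab15, Tgm2, Flvcr2 and Sdcbp2, with log2 fold changes from 3.26 to 5.24 and edgeR adjusted p from 1.02e-12 to 0.0019. Hilpda (GRCm38 chromosome 6, 29272488 to 29275446, plus strand), which encodes an inhibitor of triglyceride breakdown on lipid droplets, measured 8.69, 10.4 and 9.21 CPM untreated and 348, 356 and 366 CPM at 6 h (5.24 ± 0.08). Angptl4 (chromosome 17, 33773750 to 33781830), a secreted inhibitor of lipoprotein lipase, measured 4.43, 3.21 and 3.11 CPM untreated and 113, 115 and 112 CPM at 6 h (4.99 ± 0.37). Lepr, the leptin receptor gene, which shares first exons with Leprot, measured 1.4, 0.952 and 0.589 CPM untreated and 42.5, 33.6 and 29.1 CPM at 6 h. In each of these 3 genes the 6 h libraries lay far above the highest untreated library. Cd14, the co-receptor for bacterial lipopolysaccharide, rose from 106, 117 and 95.7 CPM to 1061, 1116 and 1057 CPM. Tgm2, a protein-crosslinking transglutaminase, rose from 35.6, 38.7 and 34.7 to 373, 328 and 379.6 CPM. Snph and Sdcbp2 lie end to end on opposite strands of chromosome 2 (151590549 to 151632593 and 151572622 to 151590005), and in libraries without strand any reads over both ends cannot be told apart. Rims3, Rab15 and Flvcr2 stayed low, with 6 h means of 9.52, 16.9 and 6.77 CPM. Below the limit of 5 CPM, Pdk4 and Areg, described below by their counts, rose more than several of these genes.

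**Figure D2:**
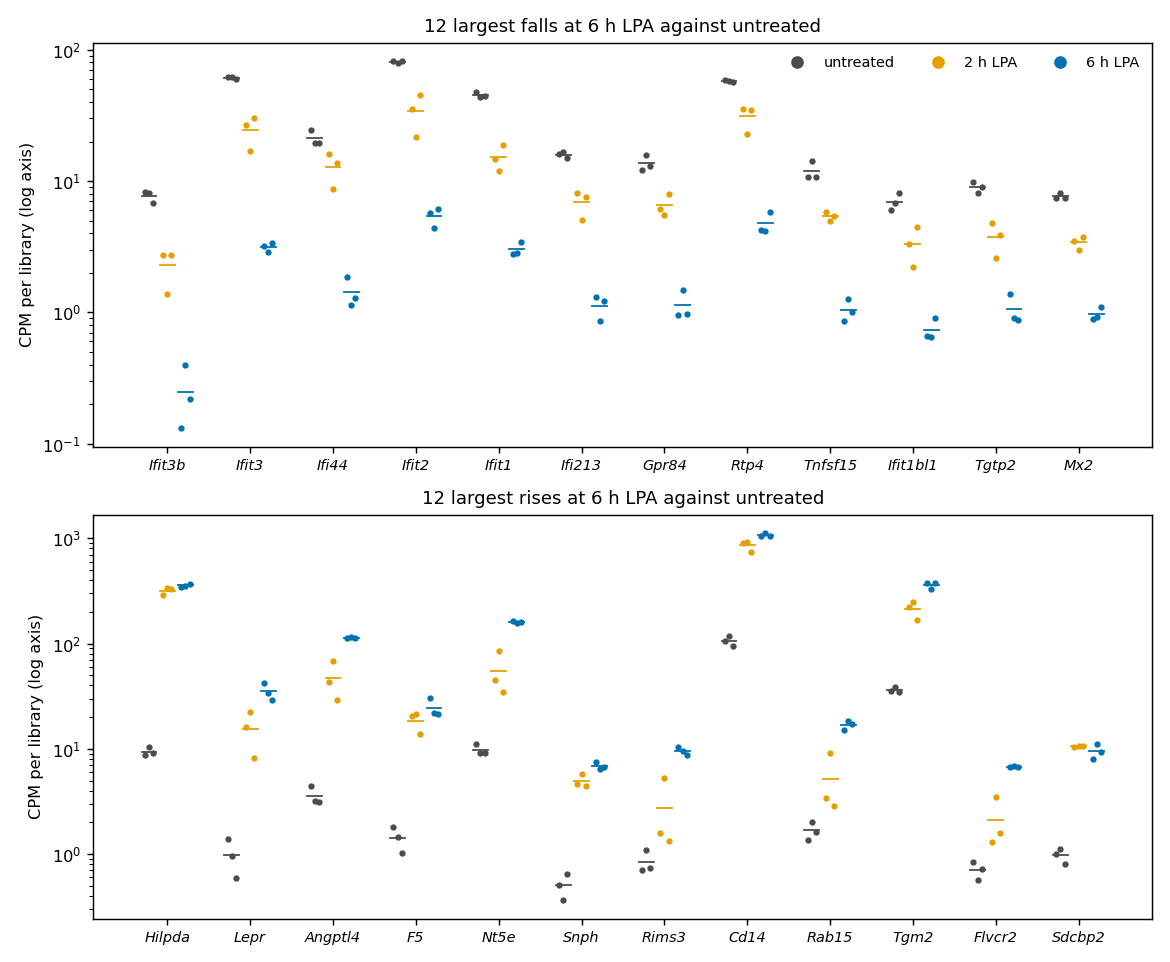
CPM in each of the 9 libraries (points, log axis) with the group mean (line) for the 12 largest falls (top) and 12 largest rises (bottom), in dark grey for untreated, orange for 2 h and blue for 6 h. The 6 h points do not overlap the untreated points in any of the 24 genes, a criterion of the naming rule, and Hilpda at 2 h (289 to 334 CPM) already lay near its 6 h level (348 to 366 CPM).

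The 5 largest losses in CPM were of Prdx1, an antioxidant peroxiredoxin, Mmp12, macrophage elastase, Lpl, lipoprotein lipase, Psap, a lysosomal sphingolipid activator precursor, and Actb, β-actin. Prdx1 went from 10220, 10807 and 10799 to 6035, 6330 and 6196 CPM (log2 fold change -0.78 ± 0.07), and Lpl from 5464, 5298 and 5638 to 2266, 2354 and 2243 CPM (-1.26 ± 0.07). Mmp12 was the largest of these transcripts, with 20944, 21064 and 21743 CPM untreated and 17339, 18572 and 18069.6 CPM at 6 h (-0.24 ± 0.05). Actb fell from 5152 ± 321 to 3014 ± 98.9 CPM (mean ± SD, n = 3, as for every pair of means below). The 5 largest gains were of Thbs1, Plin2, Csf2rb, Mmp19 and Cd14. Thbs1, the matrix glycoprotein thrombospondin 1, measured 405, 279.6 and 255 CPM untreated and 2811, 2231 and 2386 CPM at 6 h (2.98 ± 0.21). Csf2rb, the shared receptor chain for GM-CSF, IL-3 and IL-5, rose from 3389 ± 49.7 to 4541 ± 118 CPM (0.42 ± 0.06).

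Genes of the type I interferon response were lower at 6 h across the families examined. In 11 lists with 99 tested members, 84 fell and 6 rose, against 25.7% and 26.4% of all genes tested, and 62 fell at least 2-fold, against 4.48% of all genes. Their median log2 fold change was -1.47, against 0.01 over all genes. These lists and those below were drawn up with earlier results of these data known, so a count describes the family and is not independent evidence of its direction. The receptor itself was not lower, since Ifnar1 measured 173, 171 and 173 CPM untreated and 168, 175 and 171 CPM at 6 h (edgeR adjusted p = 0.862) and Ifnar2 rose from 87.3, 83.3 and 80 to 107, 95.3 and 103 CPM (0.28 ± 0.05). Among the ISGF3 genes, Stat2 fell from 193, 193 and 189.6 to 78.6, 80.8 and 84.8 CPM (-1.24 ± 0.06, adjusted p = 2.01e-08) and Irf9 from 89.2 ± 2.25 to 36.5 ± 1.36 CPM (-1.29 ± 0.07). The kinase genes moved less, with Jak1 at -0.19 ± 0.05 and Tyk2 at -0.27 ± 0.06. Usp18, which removes Isg15 from proteins and dampens receptor signalling, fell from 69.8, 72.6 and 71.7 to 16, 18.2 and 19.1 CPM. Ifnb1, the interferon β gene, did not pass the filter, holding 5, 2 and 0 counts untreated and 0 in each 6 h library, so no change in it was detectable at this depth.

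Effector families had lower medians than the receptor and ISGF3 list, whose median was -0.32. All 6 Ifit genes fell, with a median log2 fold change of -3.90. Of 9 genes of the oligoadenylate synthetase list 8 fell and 0 rose, among them Oas2, which makes short oligoadenylates on sensing double-stranded RNA, from 35.1, 35.4 and 33.3 to 4.17, 4.27 and 5 CPM (-2.94 ± 0.14). Isg15, a ubiquitin-like modifier, measured 44.7, 50.1 and 44.5 CPM untreated and 5.75, 6.19 and 6.82 CPM at 6 h (-2.88 ± 0.12). Its conjugating enzymes Uba7, Ube2l6 and Herc6 fell by 1.03, 1.31 and 1.44 on the log2 scale, and Trim25, an E3 ligase that also activates RIG-I, rose from 234 ± 3.29 to 336 ± 5.68 CPM (0.52 ± 0.05). The Isg15 and Trim25 groups each stood clear of the other group, in opposite directions. Among 14 antiviral restriction factors 10 fell and 2 rose. Mx1, a dynamin-like GTPase that traps viral nucleocapsids, fell from 111, 113 and 113 to 28.5, 31.7 and 29.6 CPM (-1.91 ± 0.07), and the rising pair were Ifitm2 (0.59 ± 0.06) and Ifitm1 (1.42 ± 0.15), which block viral fusion. Ifitm3, of the same family, fell by 0.62, and Ifitm1 was chosen for naming after its values were seen.

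In 4 further families every tested member fell. All 10 tested PYHIN genes, DNA sensors and regulators clustered on chromosome 1, fell, with Ifi203 going from 74.6, 67.6 and 72.1 to 11.7, 10.9 and 11.6 CPM (-2.65 ± 0.13) and Ifi213 from 16, 16.7 and 14.9 to 1.31, 0.853 and 1.21 CPM (-3.84 ± 0.20). All 13 tested interferon-inducible GTPases, which attack vacuoles of intracellular microbes, fell at least 2-fold (median -1.93). Irgm1 went from 97 ± 7.13 to 42 ± 3.56 CPM (-1.21 ± 0.08) and Igtp from 23.1 ± 0.793 to 7.37 ± 0.102 CPM (-1.65 ± 0.09). All 7 Schlafen genes (median -1.49) and all 6 interferon-linked PARP genes (median -0.94) fell. Slfn1, which restrains lymphocyte growth when overexpressed, measured 24.3, 19.9 and 21.7 CPM untreated and 2.56, 2.47 and 3.35 CPM at 6 h, and Parp12 measured 103, 102 and 104 and 36.5, 32.5 and 34.6 CPM. Members of the PYHIN, GTPase and Schlafen families share long stretches of sequence, so the split between copies depends on how the counting method divided reads.

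**Figure D3:**
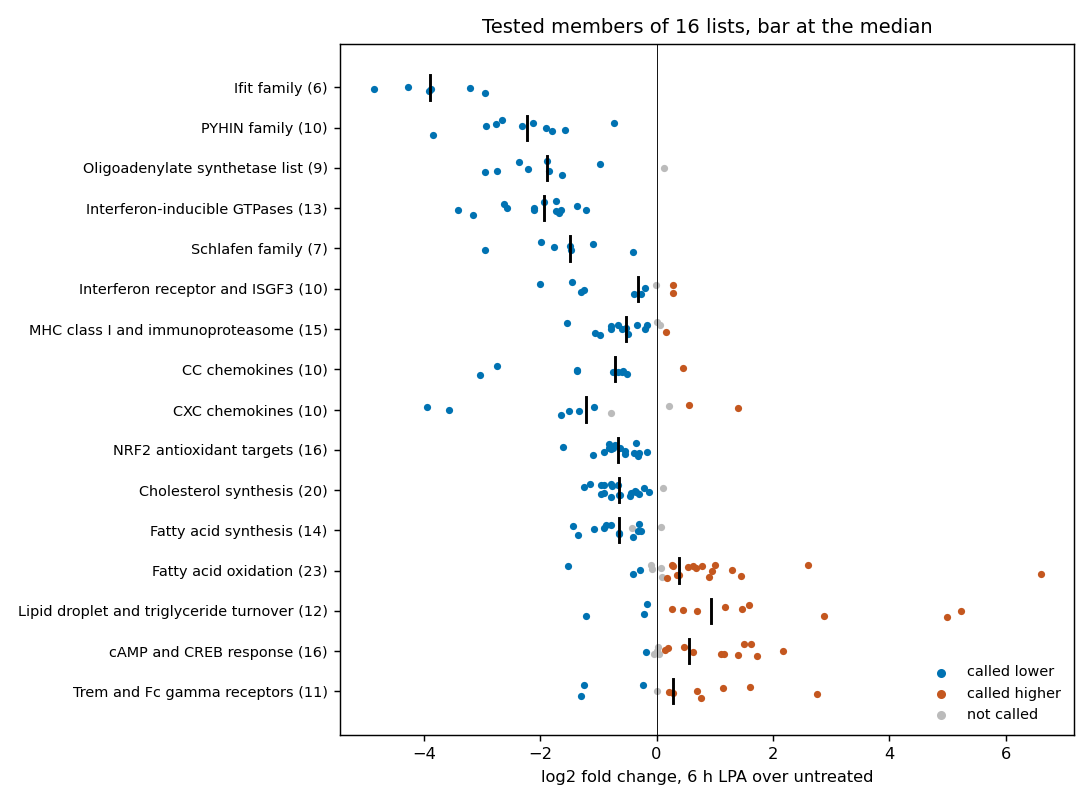
Log2 fold change at 6 h over untreated (horizontal axis) of every tested member of 16 lists, coloured by its edgeR call, with a bar at each list's median. Medians run from -3.90 for the Ifit family to 0.94 for lipid droplet and triglyceride turnover.

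Cytosolic sensors of viral nucleic acid were lower, and adaptors and kinases differed among themselves. Of 13 genes 10 fell and 1 rose (median -0.86). Dhx58, a regulator of RIG-I-like receptors, fell from 61.5, 64 and 58.4 to 17.2, 18.4 and 18.3 CPM (-1.77 ± 0.09). Irf7, the factor that amplifies interferon α transcription, fell from 88.6, 85.7 and 79.4 to 34, 28.6 and 34.3 CPM (-1.39 ± 0.12). Ikbke, a kinase of interferon regulatory factors, fell by 0.79. Tbk1 and Irf3 were not called (-0.10 and 0.08), and Mavs, the mitochondrial adaptor of RIG-I-like receptors, rose from 54.4 ± 1.39 to 64.6 ± 1.82 CPM (0.25 ± 0.06). Trex1, the DNA exonuclease, shares a row of the table with the overlapping gene Atrip, and that row fell by 1.94. Of 6 other interferon regulatory factor genes, Irf1, Irf2 and Irf5 fell by 0.34, 0.39 and 0.30, and Irf8, needed for conventional dendritic cell development, was not called (0.11).

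Toll-like receptor genes and their partners divided. Of 15 genes 9 fell (60%) and 5 rose (33.3%), against 25.7% and 26.4% of all genes tested. Tlr1, which pairs with Tlr2 to sense bacterial lipopeptides, fell from 26.2, 28.2 and 29 to 5.98, 6.32 and 5.36 CPM (-2.24 ± 0.12), and the endosomal receptor genes Tlr3, Tlr7, Tlr8 and Tlr9 fell by 0.84, 0.34, 0.54 and 0.68. The parts of the lipopolysaccharide receptor went the other way, with Cd14 at 3.34, Tlr4 at 0.45 and Ly96 at 0.19. Tlr5, the flagellin receptor, rose from 0.148, 0.106 and 0.126 CPM to 1.41, 1.2 and 1.06 CPM, still a low level. Trem and Fcγ receptor genes mostly rose, 7 of 11 (63.6%) against 3 that fell (27.3%). Fcgr3 rose from 439 ± 20 to 748 ± 26.5 CPM (0.77 ± 0.07) and Fcgr4 from 6.94 ± 0.57 to 15.3 ± 0.751 CPM (1.14 ± 0.07), whereas Fcgr1, the high-affinity receptor, fell from 32.6 ± 2.31 to 13.8 ± 1.05 CPM (-1.24 ± 0.11). Trem1, an activating receptor chosen after its values were seen, measured 4.49, 4.1 and 4.04 CPM untreated and 26.3, 27.8 and 30.8 CPM at 6 h (2.76 ± 0.20).

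In antigen presentation the regulators and most processing genes were lower, and the presenting molecules changed little. Of 15 MHC class I and immunoproteasome genes 12 fell and 1 rose (median -0.53). Nlrc5, the transactivator of class I genes, fell from 96.5, 96.8 and 92 to 32.6, 32.4 and 33.1 CPM (-1.54 ± 0.07). The proteasome activator gene Psme2 fell from 198, 212 and 196 to 91.9, 102 and 98.8 CPM (-1.05 ± 0.07) and the immunoproteasome gene Psmb10 from 83.5, 85.4 and 77.2 to 42, 42.2 and 40.4 CPM (-0.98 ± 0.07). By contrast B2m and H2-K1, which encode the light chain and a heavy chain, were not called (0.06 and 0.01). Genes of the constitutive proteasome also fell in 11 of 14 cases, by at most 0.41. Ciita, the master regulator of class II genes, measured 84.1, 78.5 and 79.3 CPM untreated and 17.2, 19.4 and 18.5 CPM at 6 h (-2.13 ± 0.07, adjusted p = 1.62e-09). Of 11 class II genes 7 fell and 1 rose, but H2-Ab1 and H2-Eb1 fell only by 0.23 and 0.22, H2-Aa and Cd74 were not called (-0.10 and -0.15), and 4 rather than 7 fell without 6 h replicate 3. H2-DMb1, part of the peptide exchange chaperone, fell from 126, 122 and 113 to 53, 57 and 53.3 CPM (-1.15 ± 0.09). The class II gene that rose was Ctss, a processing protease, from 3847 ± 104 to 4558 ± 104 CPM (0.24 ± 0.05). Among 13 co-stimulatory and co-inhibitory ligands 6 rose (46.2%) and 4 fell (30.8%), against 26.4% and 25.7% of all genes tested. Cd80 stood at 0.82 ± 0.07 and Tnfsf4 (OX40 ligand) at -1.60 ± 0.12, and Cd274 (PD-L1) was not called at 0.02.

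Chemokine genes were mostly lower. Of 10 tested CC chemokines 9 fell and 1 rose (median -0.71), and of 10 CXC chemokines 6 fell and 2 rose (median -1.21). Ccl2, which recruits monocytes, measured 5.62, 6 and 4.9 CPM untreated and 0.92, 0.926 and 0.654 CPM at 6 h (-2.75 ± 0.16). Cxcl10, an interferon-induced attractant of T cells, measured 2.44, 4.01 and 4.35 CPM untreated and 0.23, 0.182 and 0.28 CPM at 6 h (-3.94 ± 0.35). Both were low transcripts, and their groups did not overlap. Ccl17 fell from 33.4, 35.4 and 34.7 to 19.9, 21.4 and 20.1 CPM (-0.75 ± 0.07). The exceptions included Ccl5, up from 155, 185 and 151 to 216, 247 and 205 CPM (0.45 ± 0.11), and Cxcl16, up from 421 ± 19.3 to 622 ± 13.3 CPM (0.56 ± 0.05). Receptors moved in both directions, 5 of 9 higher (55.6%) and 3 lower (33.3%), against 26.4% and 25.7% of all genes tested. Cxcr4, the receptor for Cxcl12, rose from 83.6, 82 and 78 to 244, 246 and 253 CPM (1.61 ± 0.06) and Ccr1 from 200.5 ± 12.3 to 397 ± 15.2 CPM (0.98 ± 0.07). Cx3cr1 fell from 5.34 ± 1.19 to 0.884 ± 0.154 CPM (-2.63 ± 0.23).

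Inflammatory cytokine genes did not move as a block. Of 14 interleukin 1 and inflammasome genes 4 rose (28.6%) and 6 fell (42.9%), against 26.4% and 25.7% of all genes tested. Casp1, which cleaves pro-IL-1β, fell from 83.6, 77.6 and 80.8 to 42, 41.3 and 40.2 CPM (-0.97 ± 0.06), and the inflammasome adaptor gene Pycard fell from 91.1, 86.9 and 83.4 to 45.7, 45.5 and 38.8 CPM (-1.01 ± 0.07). Il1r2, the decoy receptor, rose from 1.89, 1.8 and 2.12 to 12.1, 12.3 and 17.1 CPM (2.85 ± 0.19). Il1b, the gene of pro-IL-1β, named after its values were seen, rose from a mean of 5.95 to 17.2 CPM (1.52 ± 0.27). Of 8 interleukin 6 family genes 5 rose and 0 fell. Osm, oncostatin M, rose from 5.77, 6.76 and 6.56 to 33.5, 34.4 and 36.4 CPM (2.45 ± 0.11) and Lif from 1.72, 2.21 and 1.93 to 6.41, 6.32 and 6.57 CPM (1.71 ± 0.12), while Il6 was not called (0.60). Genes of the NF-κB feedback circuit fell in 9 of 15 cases and rose in 0. Tnf, named after its values were seen, went from 18.3, 21.2 and 20.4 to 6.27, 5.59 and 5.4 CPM (-1.81 ± 0.20), and the inhibitor gene Nfkbie from 52.2 ± 3.05 to 30.8 ± 1.25 CPM (-0.76 ± 0.07). Of 16 cytokine receptor genes 8 rose (50%) and 5 fell (31.2%). Among the rises were Il7r, from 586 ± 16.7 to 972 ± 16.2 CPM (0.73 ± 0.05), and Il10rb, from 113 ± 2.67 to 169.6 ± 0.792 CPM (0.59 ± 0.05).

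Secreted and surface factors that act on vessels, clotting and purines included some of the largest rises, but these lists did not rise as a whole. Of 10 tested angiogenic and EGF-like growth factor genes 4 rose and 3 fell (40% and 30%, median -0.15). Of 9 tested adenosine genes 3 rose and 2 fell (33.3% and 22.2%, median 0.04). The shares of all genes tested were 26.4% and 25.7%. Vegfa, the main angiogenic growth factor, measured 28.5, 25.7 and 23.2 CPM untreated and 196, 147 and 167 CPM at 6 h (2.72 ± 0.13). Its co-receptor genes Nrp1 and Nrp2 fell by 0.71 and 1.31, Nrp2 from 678, 705 and 691 to 296, 273 and 266 CPM. Areg, an EGF receptor ligand, held 3, 1 and 0 counts untreated and 10, 25 and 41 at 6 h, a ratio of 20.4 scaled for library size (exact 95% interval 7.65 to 76.8, counting error only). Nt5e (CD73), which makes adenosine from AMP, measured 11, 9.19 and 9.04 CPM untreated and 164, 158 and 161 CPM at 6 h (4.05 ± 0.37). Entpd1 (CD39), the upstream enzyme that makes AMP, rose from 125 ± 11.8 to 179 ± 9.05 CPM (0.52 ± 0.07). The adenosine receptor gene Adora2b fell by 0.46, and Adora2a was not called (-0.05).

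Clotting genes split, with 5 of 13 higher and 5 lower (38.5% each, against 26.4% and 25.7% of all genes tested). F5, coagulation factor V, rose from 1.82, 1.44 and 1.03 to 30.3, 21.8 and 21.2 CPM (4.08 ± 0.27), and F3, tissue factor, fell from 6.93, 5.9 and 6.9 to 1.77, 1.11 and 1.35 CPM (-2.25 ± 0.16). Of 10 metalloproteinase and inhibitor genes Mmp19 alone rose, from 283, 224 and 223 to 1442, 1192 and 1239 CPM (2.41 ± 0.17), and 7 fell. Mmp13, a collagenase, fell from 407, 461 and 439 to 208, 226 and 185 CPM (-1.08 ± 0.09), and Mmp14 from 393 ± 4.15 to 258 ± 1.95 CPM (-0.61 ± 0.04).

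Known and proposed receptors for LPA were present at very different levels. Per kilobase of exon, mean untreated levels were 22.7 CPM for Lpar6, 2.75 for Lpar5, 0.663 for Lpar1, 0.333 for Lpar2 and 0.298 for Lpar3. P2ry10 and Gpr35, receptors whose ligands are debated, stood at 4.39 and 3.07 CPM. At 6 h Lpar6 rose from 126, 116 and 126 to 168, 165 and 155 CPM (0.41 ± 0.05) and Lpar1 from 2.84, 2.83 and 2.86 to 7.42, 6.77 and 6.34 CPM (1.26 ± 0.16). Lpar5 fell from 4.37, 4.16 and 3.97 to 2.99, 3.23 and 3.33 CPM (-0.38 ± 0.11). Lpar2 and Lpar3 were not called (0.00 ± 0.16 and -0.31 ± 0.20), and Lpar4 was below the filter, with 0 to 6 counts in each of the 6 libraries. The order of the receptors by level per kilobase was the same at 6 h, from 30.1 CPM for Lpar6 to 0.235 for Lpar3. Of 11 enzymes that make or degrade LPA 4 rose (36.4%) and 2 fell (18.2%), against 26.4% and 25.7% of all genes tested. Among them were Gpat3, which makes LPA from glycerol 3-phosphate, up from 0.509, 0.484 and 0.778 to 2.07, 2.61 and 2.74 CPM (2.10 ± 0.20), and the LPA phosphatase gene Plpp1, down from 4.64, 5.14 and 4.2 to 1.61, 1.92 and 1.78 CPM (-1.39 ± 0.13).

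Early response and cAMP-linked genes rose more often than they fell, 26 against 8 of 50. Of 16 cAMP and CREB response genes 11 rose and 1 fell (median 0.55). Pde3b, a phosphodiesterase that degrades cAMP, rose from 11.4, 10.3 and 11.4 to 52.8, 45.2 and 50.6 CPM (2.17 ± 0.07, adjusted p = 2.96e-09). Per2, a clock gene with CREB sites, rose from 16, 13.8 and 13.1 to 36.1, 36.9 and 39.7 CPM (1.40 ± 0.07). Of 15 AP-1 factor genes 7 rose (46.7%) and 5 fell (33.3%). Fos went up from 22.4, 21.2 and 20.1 to 100.3, 94 and 89.6 CPM (2.15 ± 0.15) and Fosl1 down from 3.45, 4.08 and 3.11 to 1.28, 1.47 and 1.32 CPM (-1.38 ± 0.15). Of 9 MAP kinase phosphatase genes 5 rose and 0 fell, led by Dusp10, up from 2.97 ± 0.275 to 10.6 ± 1.81 CPM (1.84 ± 0.14). Of 10 Krüppel-like factor genes 3 rose and 2 fell, near the shares of all genes (26.4% and 25.7%), with Klf11 at 2.12 ± 0.12 and Klf2 at -1.57 ± 0.20.

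Prostanoid genes were lower or not called. Of 15 tested genes 11 fell and 0 rose (median -0.33). Tbxas1, thromboxane synthase, fell from 158, 149 and 149 to 109, 105 and 96.3 CPM (-0.56 ± 0.06), and Ptgir, the prostacyclin receptor, from 232, 228 and 222 to 135, 131 and 124 CPM (-0.81 ± 0.08). Ptgs2, the inducible cyclooxygenase, measured 3.09, 3.81 and 3.36 CPM untreated and 2.89, 3.45 and 2.77 CPM at 6 h, and the groups overlapped (adjusted p = 0.447). In the leukotriene pathway 2 of 9 genes fell and 3 rose (22.2% and 33.3%), near the shares of all genes (25.7% and 26.4%). Alox5, 5-lipoxygenase, fell from 26, 24.4 and 27.8 to 11.5, 11.3 and 11.2 CPM (-1.20 ± 0.09), and the rises of Alox5ap, Ltc4s and Pla2g7 were 0.13, 0.29 and 0.35. Without 6 h replicate 2, 6 h replicate 3 or untreated replicate 3, the number that rose was 1 in place of 3.

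Lipid genes changed in a divided way: lipid droplet, triglyceride and fatty acid oxidation genes mostly rose, and fatty acid and sterol synthesis genes mostly fell. Of 12 tested lipid droplet and triglyceride genes 9 rose and 3 fell (median 0.94). Plin2, the main droplet coat protein of myeloid cells, rose from 307, 299 and 281 to 2096, 2232 and 2189.9 CPM (2.88 ± 0.27). Dgat1 and Dgat2, which complete triglyceride synthesis, rose by 1.47 and 1.59, and the lipase gene Pnpla2 by 1.17. Mgll, monoacylglycerol lipase, fell from 211, 182 and 178 to 83.2, 83 and 79.7 CPM (-1.22 ± 0.09). Of 23 fatty acid oxidation genes 16 rose and 3 fell (median 0.38). Slc25a20, the mitochondrial acylcarnitine carrier, rose from 18.7, 18.6 and 17.2 to 47.4, 51.9 and 49.3 CPM (1.45 ± 0.08), and Etfdh, which passes electrons from oxidation to the respiratory chain, from 33.4, 31 and 32.5 to 65.2, 65.6 and 63.7 CPM (1.01 ± 0.07). Cpt1a, which controls mitochondrial entry, went from 136, 121 and 121 to 312, 313 and 309 CPM (1.30 ± 0.11). Pdk4, which holds back pyruvate oxidation, held 2, 1 and 2 counts untreated and 113, 179 and 185 at 6 h, a ratio of 102 scaled for library size (exact 95% interval 43.6 to 317, counting error only).

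Genes of fatty acid and sterol synthesis went the other way. Of 14 fatty acid synthesis genes 12 fell and 0 rose (median -0.65), and of 20 tested cholesterol synthesis genes 19 fell and 0 rose (median -0.65). Fasn, fatty acid synthase, measured 250, 262 and 274 CPM untreated and 149, 158 and 152 CPM at 6 h (-0.78 ± 0.06). Fads2, a desaturase, measured 105, 117 and 112 and 58.5, 65.1 and 59.4 CPM (-0.87 ± 0.06). Mvk, mevalonate kinase, fell from 24.7, 25.7 and 26 to 10.8, 12.6 and 11.3 CPM (-1.14 ± 0.07), and Hmgcs1, which makes the precursor of mevalonate, from 258, 259 and 292 to 149.5, 159 and 164 CPM (-0.78 ± 0.06). The groups stood apart in each of these 4 genes. Fatty acid uptake genes split 5 and 5 (50% each), with Fabp4 falling by 1.30 and the transporter gene Slc27a4 rising by 0.78. Of 8 tested LXR target and partner genes 4 rose (50%) and 2 fell (25%). The shares of all genes tested were 26.4% and 25.7%. The cholesterol exporter gene Abca1 went up from 392 ± 29.4 to 592 ± 49.3 CPM (0.60 ± 0.08).

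**Figure D4:**
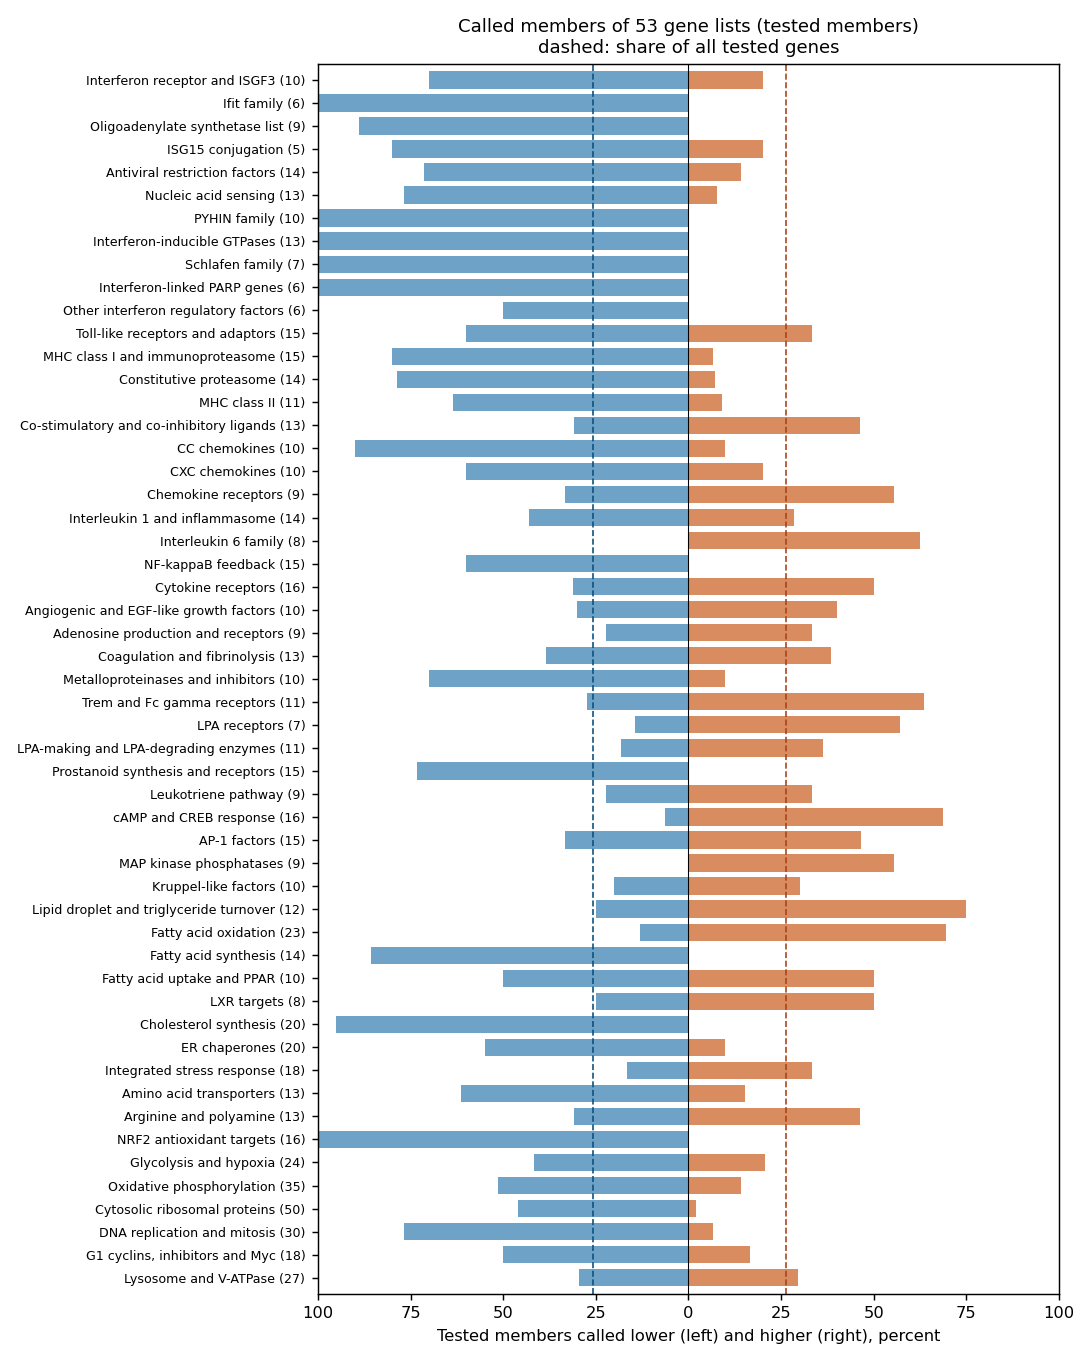
Percent of tested members called lower (left, blue) and higher (right, orange) at 6 h in each of 53 gene lists, with the number of tested members in parentheses. Dashed lines mark the shares over all tested genes, 25.7% lower and 26.4% higher, and the lists whose tested members were all lower are the Ifit, PYHIN, GTPase, Schlafen and PARP families and the NRF2 targets.

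Antioxidant genes formed another block. All 16 NRF2 target and partner genes fell (median -0.67). Hmox1, which degrades heme, measured 836, 934 and 831 CPM untreated and 432, 418 and 373 CPM at 6 h (-1.09 ± 0.07). G6pdx and Tkt, which supply NADPH through the pentose phosphate pathway, fell by 0.82 and 0.71. Prdx1, described above for its loss in CPM, belongs to the same list. Among 20 endoplasmic reticulum chaperone and quality control genes 11 fell and 2 rose, none by 2-fold, with Sec61b at -0.51 ± 0.06 and Dnajb9 at 0.49 ± 0.05. Of 18 integrated stress response genes 6 rose (33.3%) and 3 fell (16.7%), against 26.4% and 25.7% of all genes tested. Ddit4, an inhibitor of mTORC1, rose from 3.79, 3.75 and 2.73 to 9.56, 11.3 and 10.4 CPM (1.61 ± 0.15), and Psat1, of serine synthesis, fell from 34.2 ± 3.25 to 21.3 ± 2.43 CPM (-0.67 ± 0.10). Among heat shock genes, Hsph1 rose by 0.59, Dnajb1 by 0.56, and the near-identical copies Hspa1a and Hspa1b by 2.08 and 1.64, while Hspa8 fell by 0.14. Of the nuclear RNAs that can track RNA quality, Malat1 was not called (0.03) and Neat1 fell by 0.80, and the part of RNA quality in the results was not tested.

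Amino acid transport and arginine use changed in both directions. Of 13 transporter genes 8 fell (61.5%) and 2 rose (15.4%). Slc7a5, the large neutral amino acid carrier, fell from 19.4, 21.3 and 21.2 to 6.24, 7.03 and 6.66 CPM (-1.63 ± 0.12), and its partner Slc3a2 rose by 0.24. Ass1, which rebuilds arginine from citrulline, fell from 1578, 1716 and 1662 to 715, 778 and 771 CPM (-1.13 ± 0.08). Arg2, the mitochondrial arginase, rose from 2.67, 2.16 and 1.93 to 11.4, 10.3 and 10.1 CPM (2.23 ± 0.15), and Arg1, named after its values were seen, from 2.71, 4.07 and 3.22 to 13.3, 14.8 and 16.4 CPM (2.14 ± 0.31). In all 6 of 13 arginine and polyamine genes rose (46.2%) and 4 fell (30.8%), against 26.4% and 25.7% of all genes tested.

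Genes of energy metabolism, translation and cell division were counted in the same way. Of 24 glycolysis and hypoxia genes 10 fell (41.7%) and 5 rose (20.8%), against 25.7% and 26.4% of all genes tested. Hk2 fell by 0.44 and Ldha rose by 0.43. Of 35 nuclear genes of oxidative phosphorylation 18 fell and 5 rose (median -0.14), with cytochrome c (Cycs) the furthest, from 41.8, 42.8 and 44.5 to 26.5, 27.1 and 26.5 CPM (-0.69 ± 0.06). Of 50 ribosomal protein genes 23 fell and 1 rose (median -0.11), and the number that fell was 13 when libraries were scaled by total counts. Replication and mitosis genes fell in 23 of 30 cases and rose in 2 (median -0.39). Mcm3, of the replicative helicase, fell from 40.4, 41 and 40.4 to 24.6, 26.3 and 25.5 CPM (-0.67 ± 0.06), and the centromere histone gene Cenpa rose from 16.6, 15.4 and 14.3 to 34.5, 33.6 and 31.3 CPM (1.10 ± 0.08). Ccnd1, cyclin D1, fell from 19.7, 21.7 and 20.2 to 3.58, 3.54 and 3.99 CPM (-2.47 ± 0.14), and the cyclin-dependent kinase inhibitor gene Cdkn1b rose from 43.5 ± 2.43 to 64.7 ± 1.02 CPM (0.57 ± 0.05). Of 27 lysosomal genes 8 rose and 8 fell (29.6% each), near the shares of all genes tested (26.4% and 25.7%).

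Cell type markers were read beside these results. The summed level of 16 conventional dendritic cell markers ran from 3464 to 3811 CPM untreated and from 2895 to 3080.3 CPM at 6 h. Of 15 tested members 8 were lower (53.3%) and 2 higher (13.3%), against 25.7% and 26.4% of all genes tested. Itgax (CD11c) fell from 1361 ± 35.7 to 1072 ± 28.3 CPM, and Zbtb46, which defines the conventional lineage, was not called (18 ± 2.07 and 18 ± 1.37 CPM). The summed level of 13 macrophage markers ran from 4039 to 4097 CPM untreated and from 4308 to 4504 CPM at 6 h. Of the 12 tested macrophage markers, by contrast, 6 were lower (50%) and 4 higher (33.3%), with a median of -0.29. Monocyte markers summed to 420.3 to 529 CPM and 379 to 434 CPM, and the plasmacytoid list to 299.7 to 335 CPM and 183 to 209 CPM, where Siglech and Ly6d held 0 to 3 counts per library and Bst2, also a restriction factor, fell by 0.83. Neutrophil, T and NK, B, stromal and erythroid markers summed to at most 14.3 CPM in any of the 6 libraries, and mast cell markers to at most 24.4 CPM, with Fcer1a, Mcpt4, Tpsb2, Ncr1 and Vsig4 at 0 in all 6. The part of any shift in cell types in the results above was not tested.

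The 6 h level differed from the 2 h level in 6991 genes (48.7%) by edgeR's quasi-likelihood test, 3493 (24.3%) higher and 3498 (24.4%) lower at 6 h. Both LPA times share the same untreated libraries, so their comparisons with untreated cells are not independent. All 6 Ifit genes, 12 of 13 GTPases and 15 of 16 NRF2 targets were lower at 6 h than at 2 h. Stat2 measured 118, 102 and 116 CPM at 2 h, between its untreated and 6 h libraries (6 h minus 2 h -0.46 ± 0.06, SE, on the log2 scale, adjusted p = 7.26e-05). Isg15 measured 32.1, 23.7 and 32.1 CPM at 2 h (-2.21 ± 0.12, adjusted p = 5.21e-06). Plin2 and Nt5e were higher at 6 h than at 2 h, by 1.33 ± 0.25 and 1.53 ± 0.32, and replicate 2 was the highest 2 h library for both. Vegfa, Osm, Lpar1 and Ddit4 had fallen back from 2 h, by 0.53, 0.85, 1.88 and 1.02 on the log2 scale, yet their 6 h libraries lay above all untreated libraries. Ptgs2 measured 12.5, 10.6 and 17 CPM at 2 h and at 6 h overlapped the untreated libraries.

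**Figure D5:**
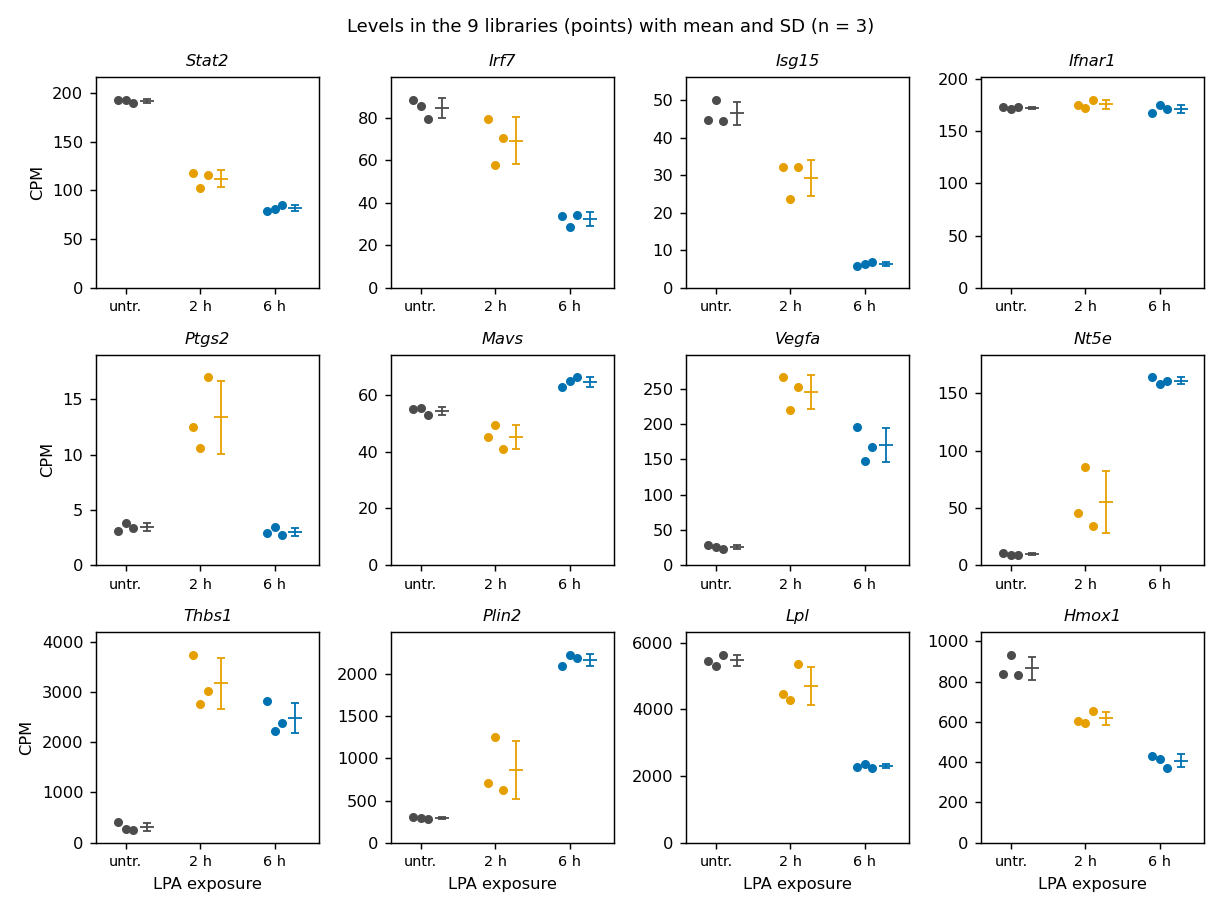
CPM in each library (points) with mean and SD (n = 3) for 12 genes in untreated cells and after 2 h and 6 h of LPA, on linear axes that start at 0. Stat2, Irf7, Isg15, Lpl and Hmox1 were lowest at 6 h, Nt5e and Plin2 were highest at 6 h, Vegfa, Thbs1 and Ptgs2 had their highest mean at 2 h, and Ifnar1 stayed between 168 and 180.3 CPM in the 9 libraries.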

How the data were processed

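RNA was sequenced from BMDC in 3 groups of 3 libraries, with RNeasy MinElute extraction and non-stranded TruSeq libraries per the labels' protocols. The authors deposited 1 table of RSEM estimated counts per gene, made with RSEM 1.2.3 on mm10, and name DESeq2, per the submitters' processing notes. The aligner was not given in the sources used here, nor was the annotation. Rows were matched to genes of GENCODE M21 on GRCm38 by their Ensembl transcript identifiers. Of 38887 rows, 37776 (98.46% of counts) matched 1 gene, 176 matched several and 935 matched none, and all were kept. Estimated counts were handled as whole numbers.

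Counts were tested with edgeR 4.0.16 in R 4.3.3 (quasi-likelihood, robust, TMM scaling, filterByExpr with a minimum count of 10 and total of 15) on all 9 libraries with no covariate, and adjusted by Benjamini-Hochberg over 14363 genes. SE is the absolute log2 fold change over the square root of F. Depth ran from 29628817 to 84596899 counts per library, and the common biological coefficient of variation was 0.0747. Exact conditional intervals for low counts are at the 95% level and cover counting error only. Data were also simulated for 6 h against untreated (14207 genes), with only a small part of the genes changed. Of these, 56.5% of 62 changed 1.5-fold, 88.4% of 69 changed 2-fold and 100% of 68 changed 4-fold were called. Of the 171 calls, 4.09% were unchanged genes. In the real data 52.0% of genes were called, so these shares are not the power or error of the calls reported here. Replicates of a group differed beyond sampling noise.

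Replicate numbers are shared by the labels, and same-numbered untreated and 6 h libraries deviated together (r = 0.178, 0.144 and 0.151 across genes, all above 0.1). The pairing comes from the data, not from the labels. The alternatives tried were a replicate block, DESeq2 1.42.0, limma-voom (limma 3.58.1), other scalings and filters, thinning, only the 6 libraries, and leaving out each library.

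Genes were named by rule: the 12 largest rises and falls that were called, reached 5 CPM in the higher group and had non-overlapping groups and an established symbol, the 5 largest CPM gains and losses, per list the 3 smallest p and the smallest against the list's majority, and Ifnb1, Ifnar1, Irf7, Isg15, Cxcl10, Ptgs2, Vegfa, Nt5e and Lpar1 to Lpar6. Some genes are not reported here. Members and lists were chosen with earlier results of these data known. Named outside the rule, after their values were seen, were Jak1, Tyk2, Ube2l6, Ifitm1, Ifitm3, Tbk1, Irf3, Irf8, Tlr3, Tlr4, Tlr7, Tlr8, Tlr9, Ly96, Trem1, B2m, H2-K1, H2-Ab1, H2-Eb1, H2-Aa, Cd74, Cd274, Il1b, Il6, Tnf, Areg, Adora2a, Adora2b, Gpr35, Alox5ap, Ltc4s, Dgat1, Dgat2, Pnpla2, Cpt1a, Arg1, Hspa1a, Hspa1b, Hspa8, Malat1, Bst2, Itgax and Zbtb46.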

Additional observations from a re-analysis of the deposited data

Results flagged for a closer look

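The 2 h and 6 h samples differed in several results, by a test of the 6 h level against the 2 h level with edgeR's quasi-likelihood test. In all, 6991 genes were called at 6 h against 2 h.

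Mavs, the adaptor of RIG-I-like receptors, measured 55.1, 55.4 and 52.8 CPM untreated, 45.2, 49.4 and 40.9 CPM at 2 h and 62.6, 65 and 66.2 CPM at 6 h. Against untreated cells its log2 fold change was -0.27 at 2 h and 0.25 at 6 h, of opposite sign, and the difference of 0.52 had an adjusted p of 6.87e-05. All 3 libraries of 2 h lay below and all 3 of 6 h above the untreated libraries.

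Ptgs2, the inducible cyclooxygenase, measured 3.09, 3.81 and 3.36 CPM untreated, 12.5, 10.6 and 17 CPM at 2 h and 2.89, 3.45 and 2.77 CPM at 6 h. It was called against untreated cells at 2 h (log2 fold change 1.95) and not at 6 h (-0.18). The 6 h level lay below the 2 h level by a log2 difference of -2.13, with an adjusted p of 1.83e-05. Both comparisons with untreated cells share those untreated libraries.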

How the results depend on the processing

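Of 207 genes named by the rule, 203 kept their direction and their side of the threshold under all 19 alternatives, and 0 reversed. Most of the 207 were chosen for large changes or small p in the main fit, so this share does not apply to all genes called. The genes named outside the rule were not part of this check. The exceptions, Psma1, Ppargc1b, H2-D1 and Rplp0, had adjusted p above 0.05 under some. Without 1 library the genes called numbered 6226 to 7896 (3185 to 3994 higher and 3041 to 3902 lower), and those called at 6 h against 2 h 5767 to 7425. With the replicate block 4072 genes were higher and 3964 lower, and the block changed no call among the 207 genes. Scaling by total counts only gave 4247 higher and 3212 lower (56.9% of calls higher, against 50.7%) and moved the median of all genes by 0.039. With no filter 22804 genes were tested, and 3750 were higher and 3366 lower.

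Of 50 ribosomal protein genes, 13 fell with no filter and 13 with total counts only, in place of 23, and 13 to 27 without 1 library (13 without 6 h replicate 2, 15 without 6 h replicate 3). Of the leukotriene genes 1 to 3 rose without 1 library, and of the class II genes 4 to 8 fell. The cause was not tested. Depth limits genes below the filter, such as Ifnb1 and Lpar4, where no change was detectable. Some genes have near-identical copies whose reads RSEM divides, and libraries without strand cannot separate overlapping genes. The LPA dose and vehicle are not given in the labels used here.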
